A study of Mus musculus with 58 samples.

Results

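The cells described here are parvalbumin (PV) interneurons of the mouse ventral subiculum, taken as 1 cell type and described across all genes. All 54 cells that carried the label Pass for quality control were used, of 58 cells in the series, and the other 4 carried the label Fail. All cells came from PV-Cre::Ai9 mice, in which Cre recombinase under the parvalbumin gene switches on a red fluorescent reporter. A reporter of this kind stays on in any cell that once made Cre, so it marks a history of parvalbumin expression and not the level at the time of harvest. Single cells were emptied of cytosol through a patch pipette, and each library is 1 cell. The series lists 29 cells from 4 male and 29 from 3 female animals, and 27 of each were labelled Pass. The Pass cells were 35 (14 cells), 36 (13), 40 (17) and 42 (10) postnatal days old. No label ties a cell to an animal, so spread between cells includes any spread between animals, and no test was made. The sexes were not compared.

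PV interneurons release GABA onto the cell bodies and proximal dendrites of their targets, and many of them fire long trains of brief action potentials. Fast potassium channels of the Kv3 family, high mitochondrial output and calcium-binding proteins are known features of these cells. The ventral subiculum is an output station of the hippocampus, where PV cells inhibit the projecting pyramidal neurons. They arise in the medial ganglionic eminence, as do somatostatin cells, and the transcription factor Lhx6 is kept by both.

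Sequencing was deep for single cells. Total counts ran from 2.05 M to 52.3 M (median 11.5 M), and 11591 to 14351 genes had at least 1 count (median 13001.5, SD 625, n = 54 cells). The 13 mitochondrially encoded genes took 0.634% to 10.9% of counts (median 1.45%), with the highest share in cell 52. No pair of cells had identical counts (0 of 1431 pairs), and Pearson's r between cells over the 10919 genes kept for spread was 0.441 to 0.759 (median 0.625). Cell 5 had the lowest mean correlation with the rest, 0.511. In all, 8 cells were set apart on some of the values described below, cells 3, 5, 9, 19, 30, 44, 46 and 52 (numbers 1 to 54 only name cells). Cells 3, 5, 9, 19, 46 and 52 were highest for 1 or more of the 10 genes most concentrated in 2 cells. Cell 5 was also farthest on the first and second principal component, and cell 30 on the third. Cell 44 had the highest sum of choroid plexus genes. This choice was made after seeing the values, and the sums and shares that rest on these 8 cells are also given over the other 46. Cells 10 and 29, with the highest sums of oligodendrocyte and astrocyte markers, were not chosen and are among the 46.

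The label was checked with 6 markers, in CPM, the counts of a gene per 1000000 counts of its cell. Gad1, the main GABA-synthesizing enzyme, was at 1337, 3560 and 6751 CPM in the lowest, median and highest cell. Gad2, the second such enzyme, was at 88.0, 346 and 952 CPM. No cell was near 0 for either enzyme, and Gad1 was above Gad2 per kilobase of exon in 54 of 54 cells. Pvalb, the calcium buffer that names the type, was at 1.18, 86.9 and 788 CPM. It reached 10 CPM in 47 of 54 cells (87.0%, exact 95% binomial interval 75.1% to 94.6%) and 100 CPM in 24 of 54. The quartiles were 28.2 and 173 CPM, so cells with little Pvalb transcript were common among cells marked by the reporter. Tac1, the precursor of substance P, was at 6.84, 649 and 3180 CPM and reached 10 CPM in 53 cells. Lhx6, the lineage factor, was at 0.458, 116 and 923 CPM and reached 10 CPM in 52 cells. Slc32a1, the vesicular GABA transporter, was the lowest of the set per kilobase, at 1.24, 24.5 and 121 CPM, and reached 10 CPM in 38 cells. All 6 markers reached 10 CPM in 31 cells, 5 in 20 cells and 4 in 3 cells. Gad1, Gad2 and Slc32a1 serve GABA neurons in general, so they do not set PV cells apart from other interneurons. The binomial interval treats the 54 cells as independent draws and leaves out any spread between animals.

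The most abundant genes served energy supply, protein turnover and transmitter release. Ndrg4, a member of the N-myc downstream-regulated family, had the highest median, with 4505, 6930 and 10236 CPM in the lowest, median and highest cell. Next came Gapdh, of glycolysis, at 2634, 5959 and 9506 CPM, and Snap25, the SNARE protein of vesicle fusion, at 2706, 5597 and 8133 CPM. None of these came near 0 in any of the 54 cells. Among the first 20 genes by median CPM, glycolysis gave Gapdh, Aldoa (4599 CPM), Ldhb (3282), Eno1 (2777) and Pkm (2728). The list also holds Ckb, the brain creatine kinase (4394 CPM), Mdh1, the cytosolic malate dehydrogenase (4245), and Atp5b, the beta subunit of ATP synthase (3942). Chaperone and turnover genes were Hspa8 (4650 CPM) and the polyubiquitin gene Ubb (2994). Gad1 was among the first 20 as well, as were Zwint (3401 CPM) and 3 mitochondrially encoded genes, mt-Cytb, mt-Co1 and mt-Nd1 (medians 4009, 3641 and 3562 CPM). Counts of the 13 mitochondrially encoded genes were uneven: mt-Nd4 had a median of 1163 CPM, mt-Co2 24.0, mt-Atp8 22.9 and mt-Nd3 7.19. Per kilobase of exon, mt-Cytb was above mt-Co2 in 54 of 54 cells. The cause of this gap was not tested, and the mitochondrial share sums these genes as counted. No small set of genes dominated a library: the 10 highest genes of a cell held 4.69% to 14.3% of its counts (median 5.52%) and the 100 highest 18.5% to 28.3% (median 20.6%).

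**Figure D1:**
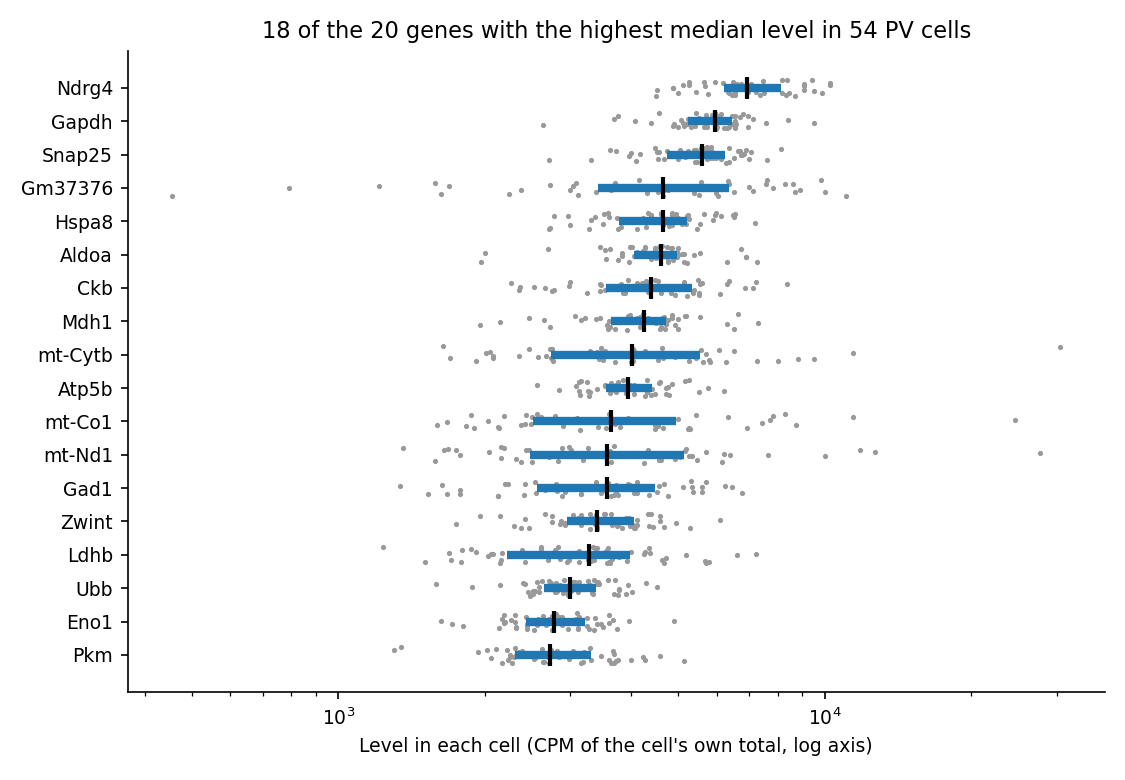
Levels of 18 of the 20 genes with the highest median, in CPM of each cell's own total on a log axis. Grey points are the 54 cells, blue bars the quartiles and black ticks the medians. Ndrg4 leads with a median of 6930 CPM. The mitochondrially encoded genes and Gm37376 spread over a wider range than Gapdh or Snap25.

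The order changed when levels were set per kilobase of exon, and 10 of the 20 genes stayed among the first 20. Gm37376, an unnamed gene model, was then first at a median of 10283 CPM per kb, followed by mt-Nd1 (3722), Snurf (3693), mt-Cytb (3504), mt-Co1 (2357) and Gm20538 (2226). Ldhb, the lactate dehydrogenase subunit of oxidative tissues, had a median of 2090 CPM per kb against 53.9 for Ldha. Ldhb was the higher in 54 of 54 cells, and Eno1 was above the neuronal enolase Eno2 in all but 6 cells. Several short genes at the head of this order share exons with a neighbour. The 216 exon bases of Snurf lie wholly in Snrpn and Gm38393 on the same strand, an imprinted locus, and 59.6% of Gm20538 lies in Ndufb8. Counts of such genes cannot be assigned to 1 of the pair with certainty.

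Gm37376 is the clearest such case. It is a single stretch of 453 bases at chr19:5801941-5802393 on the plus strand (GRCm38, GENCODE vM21). All of it lies in the exon of Malat1, an abundant nuclear noncoding RNA on the minus strand at chr19:5795690-5802672, at positions 280 to 732 of its 6983-base transcript. Malat1 itself is not among the genes of the count table used here. Whether the counting used strand is not known from the sources used here, so reads of Gm37376 and of Malat1 cannot be told apart. A stretch of 120 bases, chr19:5802121-5802240, is shown on both strands because the letters of one are those of the other, read backwards and complemented:
Gm37376, plus strand: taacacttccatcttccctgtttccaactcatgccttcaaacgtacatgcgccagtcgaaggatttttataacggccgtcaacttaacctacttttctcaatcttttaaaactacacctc
Malat1, minus strand: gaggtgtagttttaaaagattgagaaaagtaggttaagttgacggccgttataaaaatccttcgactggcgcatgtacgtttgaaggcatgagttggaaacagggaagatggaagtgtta
Across cells the counts at this place were at 455, 4658 and 11066 CPM in the lowest, median and highest cell. This spread, an SD of 0.91 on the log2(CPM + 1) scale, was wider than that of Gapdh (0.29) or Ndrg4 (0.30).

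A common core was found in all cells. At least 1 count in every cell was seen for 7821 genes, which is 38.5% of the 20302 genes found in any cell, and 1735 genes were found in 1 cell only. When each cell was thinned to the total of the shallowest cell, 4891 genes remained in every cell, so the first count moves with depth. The number at 10 CPM or more in every cell was 1854, and 1844 after thinning. These 1854 genes held 49.9% to 66.9% of each cell's counts (median 60.4%). At 100 CPM the number in every cell was 463, and at 1000 CPM it was 30. A single count is a weak sign of use of a gene: Hba-a1, a hemoglobin gene, and Slc17a7, which loads glutamate into vesicles of excitatory neurons, also had at least 1 count in 54 of 54 cells, with medians of 31.0 and 9.07 CPM.

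**Figure D2:**
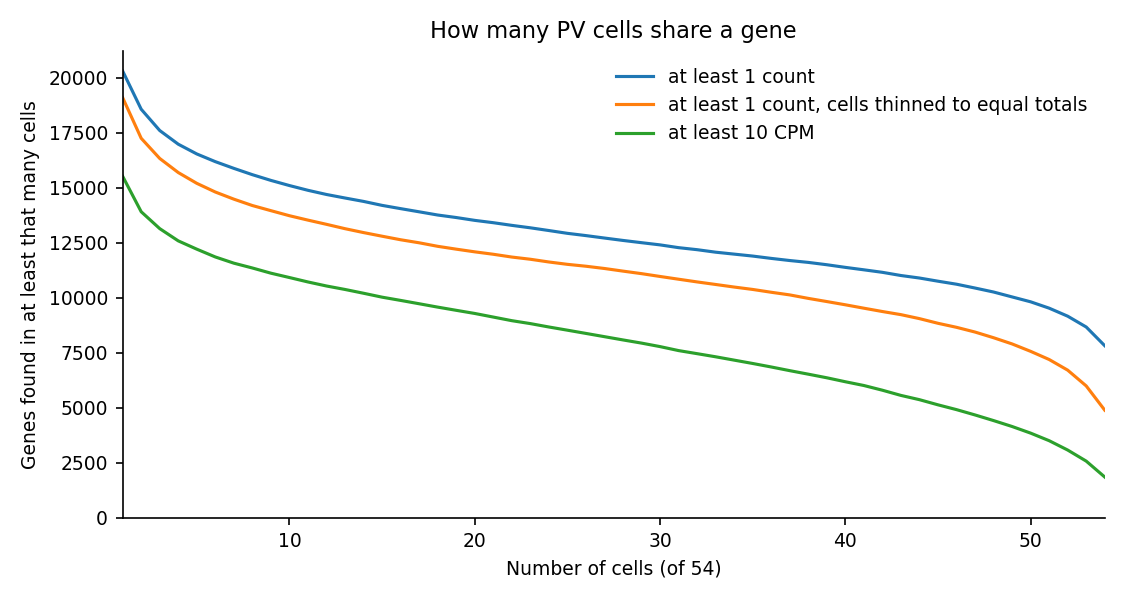
Number of genes (vertical axis) found in at least a given number of the 54 cells (horizontal axis). Lines stand for at least 1 count, at least 1 count after thinning to equal totals, and at least 10 CPM. At 54 cells the lines end at 7821, 4891 and 1854 genes.

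Most members of the housekeeping lists were at 10 CPM or more in every cell. All 25 listed cytoplasmic ribosomal protein genes and all 24 nuclear genes of oxidative phosphorylation were at 10 CPM or more in every cell, as were 14 of 15 glycolysis genes, the exception being Hk1 (53 cells). The same held for 21 of 22 cytoskeletal genes and 11 of 13 chaperones. Less full were the lists of translation factors (10 of 12), ubiquitin and proteasome (9 of 12) and mitochondrially encoded genes (9 of 13). Among neuronal groups it held for 15 of 22 genes of transmitter release, 7 of 18 voltage-gated potassium channels, 7 of 14 glutamate receptors, 4 of 13 GABA receptors and 1 of 15 lineage transcription factors (Mef2c). Over all genes found in any cell it was 1854 of 20302. These lists were chosen with earlier results of these data known, and their counts are descriptions.

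Spread between cells was measured as the SD of log2(CPM + 1) over the 54 cells. The most even of the genes at 10 CPM in every cell was Cox4i1, a subunit of cytochrome c oxidase, with 760, 1118 and 1593 CPM in the lowest, median and highest cell and an SD of 0.24. It was followed by Atp5b, the actin gene Actg1, the proton pump subunit Atp6v1g2, the chaperone Hsp90aa1 and Prkar1a, a regulatory subunit of protein kinase A (SD 0.26 each). Snrpn, Gm38393, Gabarapl2, Snurf, Emc8, Ubb, Hsp90ab1 and Slc25a4 came next, at 0.27 to 0.28. Energy supply, cytoskeleton and protein folding are thus represented among the 15 most even genes. Snurf, Snrpn and Gm38393 share exons, and Cox4i1 and Emc8 share 154 exon bases on opposite strands, so they are not independent entries. Since the SD falls with level, each gene was also set against the running median of genes of like mean, and the difference is the excess of that gene. All 25 ribosomal protein genes were below that running median (median excess -0.22), as were 21 of 24 oxidative phosphorylation genes (-0.07), against 5467 of all 10919 genes kept.

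**Figure D3:**
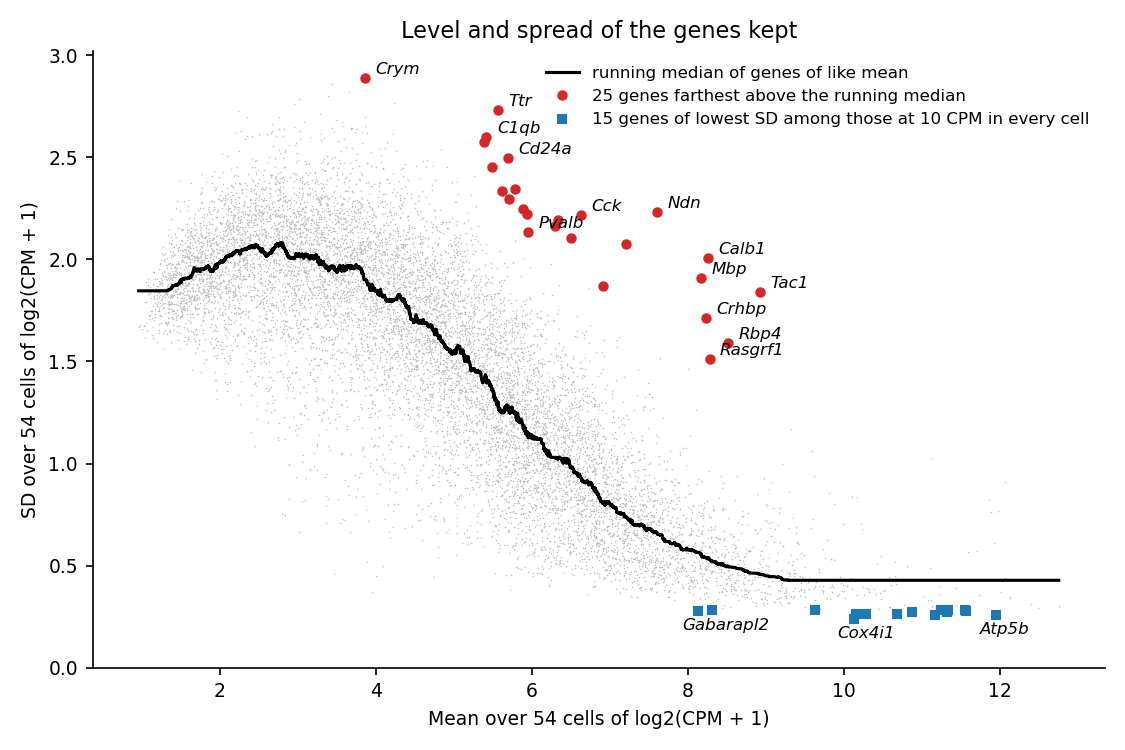
Mean (horizontal axis) and SD (vertical axis) of log2(CPM + 1) over 54 cells for the 10919 genes kept. The line is the running median of genes of like mean, red points are the 25 genes farthest above it, and blue squares are the 15 most even genes at 10 CPM in every cell. Ndn, Calb1 and Tac1 lie far above the line at high means, while Cox4i1 lies lowest.

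The most variable genes were led by neuronal genes that were near 0 in some cells and abundant in others. An excess over 0.5 was found for 384 of 10919 genes (3.52%), and for 132 with a pseudocount of 10. Of the 25 genes with the largest excess, 7 were also among the first 25 by the squared coefficient of variation. Ndn (necdin), an imprinted gene of the Prader-Willi region, was first, with an excess of 1.57 (SD 2.23). Its levels were 2.25, 382 and 1059 CPM in the lowest, median and highest cell, and the quartiles were 104 and 500 CPM. Ndn reached 10 CPM in 49 of 54 cells, and the lowest cells lay far below the lower quartile. Calb1, the calcium buffer calbindin, was second with an excess of 1.47, at 3.51, 394 and 2842 CPM. Its highest values were in cells 7 and 43, and the excess was 1.80 without the cells of 40 days. Tac1 had an excess of 1.38. All 3 genes had medians well above 100 CPM, where the running median of the SD is low.

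Further genes of this group had various roles. Cck, the cholecystokinin precursor, was at 1.13, 148 and 1148 CPM (excess 1.28). Crhbp, the binding protein of corticotropin-releasing hormone, was at 7.87, 420 and 1255 CPM (excess 1.17). Rbp4, a retinol-binding protein, was at 12.6, 543 and 1464 CPM (excess 1.09), so it was present at 10 CPM in every cell and still varied widely. Cd24a, a surface glycoprotein, was at 1.15, 80.3 and 634 CPM (excess 1.22), and 39 of 54 cells reached 10 CPM. Cd24a was thus near 0 in some cells and abundant in others. Ache, the acetylcholinesterase gene, was at 0.5, 122 and 646 CPM, and Necab1, a neuronal calcium-binding protein, at 1.42, 142 and 671 CPM. Rasgrf1, a Ras exchange factor, was at 13.05, 422 and 1081 CPM, the 25th gene by excess (0.98). PISD, Mmd2, Wscd1, Camk1g, Gpr83 and Cdh13 lay between them, with excesses of 1.02 to 1.12.

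Pvalb was itself among the most variable genes, rank 23 of 10919 (SD 2.13, excess 1.0). Without the cells of 40 days its excess was 0.65. Tac1 was above Pvalb per kilobase of exon in 33 of 54 cells, and Calb1 in 25 of 54. Of 13 calcium buffers and sensors, 12 were kept for spread and 5 had an excess over 0.5, against 3.52% of all genes kept, among them Hpcal4 (0.84) and Hpca (0.71), 2 neuronal calcium sensors. Calm2 and Calm3, which encode calmodulin, were even across cells, with excesses of 0.06 and -0.18.

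**Figure D4:**
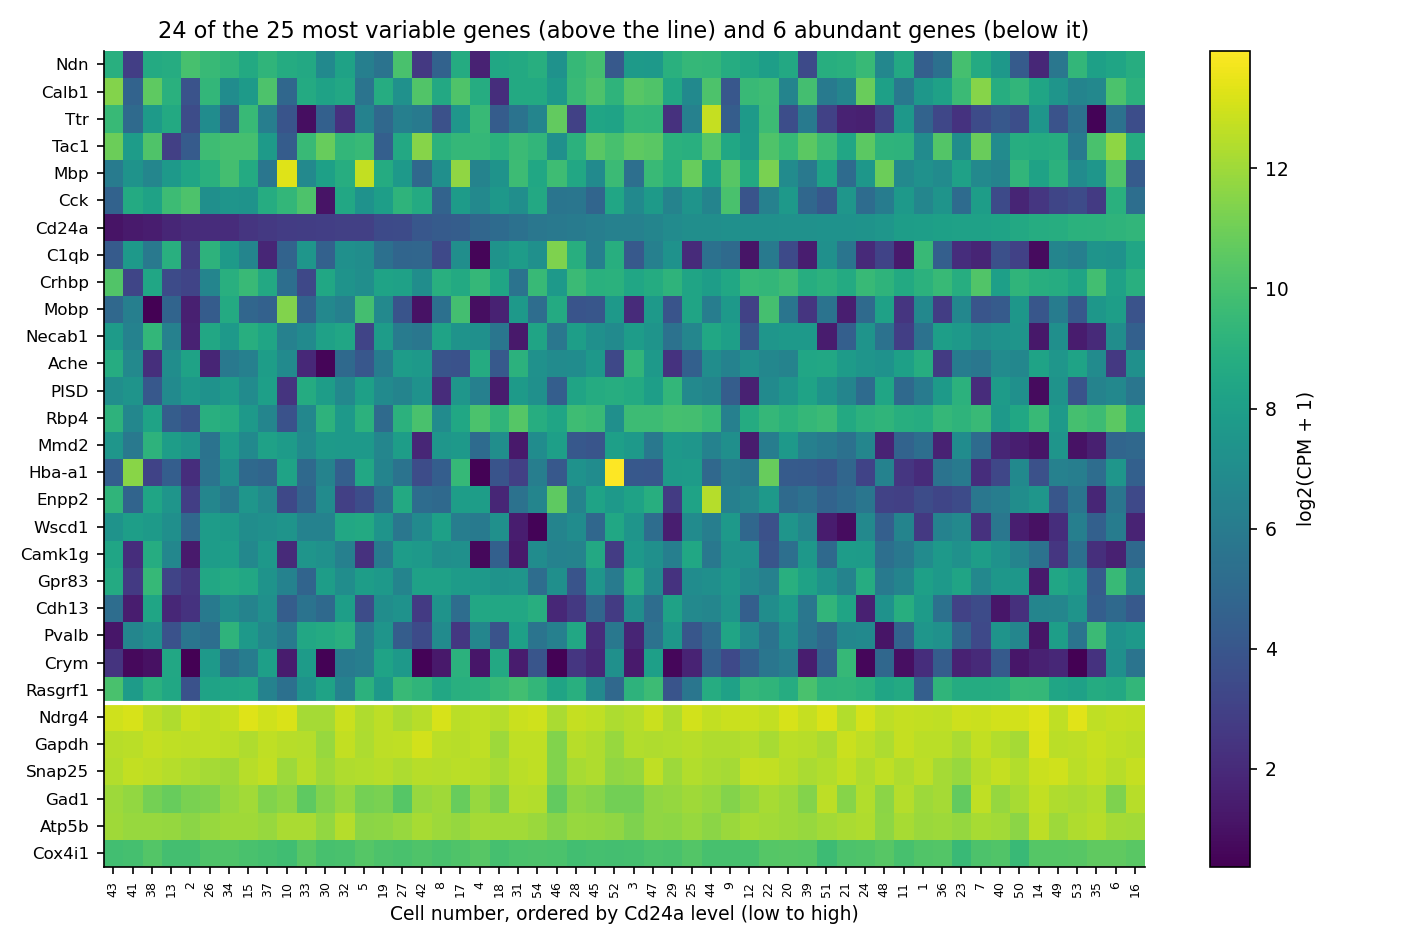
Levels as log2(CPM + 1), by colour, of 24 of the 25 most variable genes (upper rows) and 6 abundant genes (lower rows) in 54 cells. Columns are cells in order of Cd24a, from 1.15 to 634 CPM. Mmd2 tends to be higher at the left and lower at the right, while Ndrg4, Gapdh and Cox4i1 keep nearly the same colour throughout.

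A second set of variable genes belongs, as background, to other cell types, and single cells held much of their signal. Mbp, myelin basic protein, was at 18.2, 283 and 9991 CPM, highest in cells 10 and 5. The sum of 10 oligodendrocyte genes was at 97.7, 484 and 12822 CPM in the lowest, median and highest cell. Ttr, transthyretin of the choroid plexus, was at 0.431, 37.4 and 6937 CPM, and cells 44 and 46 held 53.6% of its summed level. Its excess was 1.43, and 1.03 without the 8 cells that stood apart. The sum of 12 choroid plexus genes, chosen after their values were seen, was 15372 CPM in cell 44 and 3777 in cell 46 against a median of 107, and at most 1540 CPM in the other 46 cells. C1qb, a complement gene of microglia, was at 0.463, 53.3 and 2593 CPM, highest in cell 46. The sum of 10 microglia genes was 12775 CPM in that cell against a median of 239 and at most 3417 CPM (cell 1) in the other 46 cells, and Cd14 (2423 CPM) and Il1a (2928 CPM) peaked there too. C1qb and the mitochondrial share had a Spearman rho of 0.57 across 54 cells, which share their library with both measures. Hba-a1 was at 0.356, 31.0 and 15907 CPM, with 77.1% of its summed level in cells 52 and 41, and 7 red blood cell genes summed to 29772 CPM in cell 52. Over the other 46 cells the 2 highest held 60.6% of Hba-a1, and the red blood cell sum was at most 5794 CPM, in cell 41. Cell 52 also had the highest mitochondrial share, 10.9%.

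Gad1 in these cells was within the range of the rest, but low in cells 46 and 52. It was at 1675 CPM in cell 46 and 2132 in cell 52, both below its lower quartile over all cells. In cell 44 it was at 3724 CPM, above its median. Markers of astrocytes (10 genes) summed to 172, 1056 and 6825 CPM, with the highest medians for Aldoc and Apoe, 667 and 252 CPM, while Aqp4 and Gfap had medians of 0.246 and 0.316 CPM. Excitatory neuron markers (13 genes) summed to 39.8, 187 and 1397 CPM, and 4 of the 13 had a median of 0. Another 4 of the 13 had a count in every cell, against 7821 of 20302 of all genes. Camk2a, the highest by median, was at 12.8, 93.3 and 521 CPM and reached 10 CPM in 54 of 54 cells. Endothelial and mural markers (10 genes) were nearly absent: 9 of 10 had a median of 0 and their sum was at most 264 CPM, in cell 5. Oligodendrocyte precursor markers (6 genes) summed to at most 794 CPM, in cell 45. The part of RNA from other cells in the spread of these genes was not tested.

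**Figure D5:**
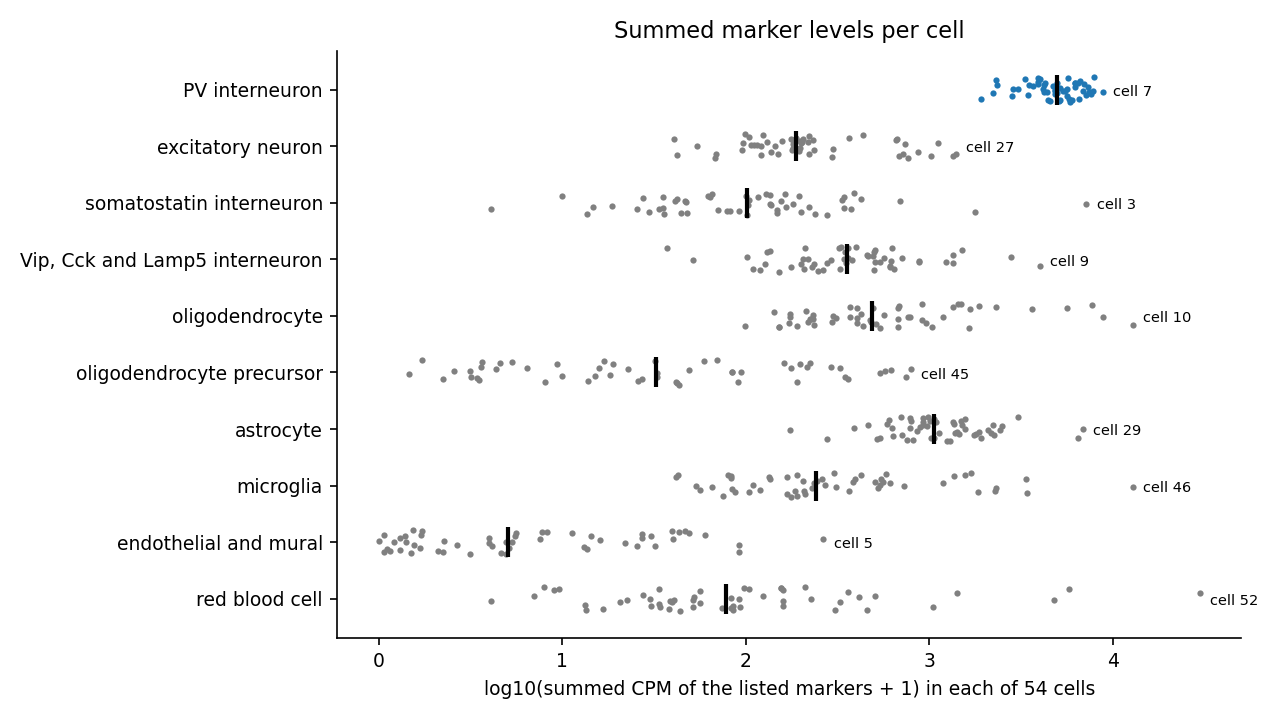
Summed CPM of the markers of each cell type, as log10(sum + 1), in each of the 54 cells (points), with the median as a black tick and the highest cell named. PV markers (blue) lie between 1914 and 8819 CPM in every cell. Gad1 has the highest median of these markers, and the sum does not tell PV cells from other interneurons. Cell 3 has a PV marker sum of 4390 CPM and a somatostatin interneuron marker sum of 7161 CPM. For the other types the medians are 4.06 to 1056 CPM, with single cells far to the right.

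Some markers of other interneuron types were concentrated in a few cells and others were widespread. Cck, Id2 and Nos1, with medians of 148, 82.0 and 45.3 CPM, reached 10 CPM in 48, 50 and 42 cells. Npy, the neuropeptide Y gene, was at 3779 CPM in cell 3 and 1603 in cell 47, which held 94.6% of its summed level, and the next cell was at 30.9 CPM. Over the other 46 cells, cell 47 still had the highest level and the share of the 2 highest was 89.6%. Sst, somatostatin, was at 3298 CPM in cell 3 and had a median of 7.64 CPM, and its highest level among the other 46 cells was 589 CPM. In cell 3 Pvalb was at 2.49 CPM and Gad1 at 2134 CPM. Vip was at 2329 CPM in cell 9 and 809 in cell 19, together 93.9% of its summed level (33.8% in the 2 highest of the other 46 cells), and 30 of 54 cells had any Vip count. Pvalb was at 323 CPM in cell 9, above its upper quartile. Penk, the enkephalin precursor, was at 891 CPM in cell 19, and at most at 60.6 CPM in the other 46. Across the 18 listed neuropeptide and secretory genes, 3 were at 10 CPM or more in every cell, Scg2, Chgb and Chga (medians 599, 402 and 365 CPM), which serve dense-core vesicles in general. Over all genes found in any cell the number was 1854 of 20302. Of the 13 listed genes kept for spread, 5 had an excess over 0.5, against 384 of 10919 of all genes kept. Pdyn, Tac2, Adcyap1 and Nts had a median of 0, while Pnoc and Cartpt had medians of 22.9 and 21.8 CPM.

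Some variable genes moved together. Over the 435 pairs of 30 genes (the 25 most variable and 5 others), Spearman's rho across 54 cells was 0.5 or more for 13 pairs and -0.5 or less for 6. The points share library and depth, and the values are descriptions. The myelin genes Mbp and Mobp gave 0.77, and Ttr and Enpp2, both known from the choroid plexus, gave 0.75. Of neuronal genes, Calb1 and Tac1 gave 0.51, Tac1 and Rbp4 0.52, and Crhbp and Gad1 0.50. Cd24a ran opposite to Mmd2 (-0.59) and to Wscd1 (-0.57), and Mmd2 opposite to Gad1 (-0.54). Slc17a7 was positively related to Mmd2 (0.55) and to Crym (0.68), the thyroid-hormone-binding mu-crystallin. Slc17a7 was at 0.111, 9.07 and 428 CPM, and 26 of 54 cells reached 10 CPM. The high end of Mmd2 and Crym thus moved with an excitatory marker, whose part in these relations was not tested.

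No single axis ordered the cells. The first principal component of the 10919 genes held 5.72% of the variance, the second 3.96% and the third 3.77%. Cell 5 was farthest out on the first and second and cell 30 on the third. Slc17a7, Ptk2b, Cpne7, Rasal1, Baiap2, Pde1a and Crym were at the positive end of the second component, and Eya1, Islr and Cd24a at the negative end. Pearson's r with the log of total counts was -0.07 for the first and -0.36 for the second, and with the mitochondrial share -0.32 and 0.14. Without the 8 cells the first component held 5.29%.

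Genes for fast firing were present throughout. Kcnc2 and Kcnc1, the Kv3.2 and Kv3.1 channels that speed repolarization, were above 10 CPM in every cell. Kcnc2 was at 136, 580 and 996 CPM in the lowest, median and highest cell, and Kcnc1 at 114, 338 and 698 CPM. Kcnc2 was above Kcnc1 per kilobase in all but 7 cells (medians 81.2 and 35.7 CPM per kb). The auxiliary subunit Kcnab3 was at 18.6, 373 and 743 CPM. All 3 were thus above 10 CPM in each cell, while Kcns3, a silent subunit, was variable, at 0.611, 77.9 and 340 CPM (excess 0.83). Of 18 potassium channel genes, 15 had a count in every cell, and 2 had an excess over 0.5, Kcns3 and Kcnip1 (0.58). Over all genes these counts were 7821 of 20302 and 384 of 10919 (3.52%). Of the sodium channel pore subunits, Scn1a was at 47.5, 281 and 535 CPM, and Scn8a was at 11.8, 141 and 444 CPM.

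For GABA handling beyond Gad1 and Gad2, Abat, which degrades GABA, had a median of 380 CPM, and Slc38a1, an amino acid transporter, 234 CPM. All 8 genes of this list had a count in every cell, against 7821 of 20302 of all genes, and 0 of 8 had an excess over 0.5, near the 3.52% of all genes kept. In the release machinery, all 22 genes had a count in every cell and 3 of 22 had an excess over 0.5, with Cplx1 (2507 CPM), Rab3a (1607), Vamp2 (1040) and Nsf (1019) next to Snap25. Among these 3 were Stx1a (excess 0.50) and Syt2, a fast calcium sensor of release, at 0.181, 57.7 and 320 CPM (excess 0.74). Syt1, the related sensor, was above Syt2 per kilobase in 54 of 54 cells (medians 79.5 and 7.56 CPM per kb).

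Receptors for glutamate were led by AMPA subunits, Gria1 at 249, 584 and 1318 CPM, Gria2 (median 339), Gria3 (263) and Gria4 (218). Of NMDA subunits, Grin1 (237) and Grin2b (154) were at 10 CPM in every cell, while Grin2a was at 0, 1.14 and 113 CPM. Gria1 was above Grin2a per kilobase in 54 of 54 cells and was even across cells for its level (excess 0.04). Among 13 GABA receptor genes, Gabrd was at 11.2, 199 and 583 CPM, and Gabra4 was the variable member, at 1.28, 138 and 435 CPM (excess 0.60). An excess over 0.5 was found for 0 of 14 glutamate receptor genes and 1 of 13 GABA receptor genes, both near the 3.52% of all genes kept.

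Of 10 genes of the perineuronal net, the matrix that wraps many PV cells, 0 reached 10 CPM in every cell, and with 1854 of 20302 over all genes this count is near the background. Hapln4, a link protein, was at 9.63, 228 and 565 CPM, and Bcan, brevican, at 3.70, 160 and 442 CPM. Acan, aggrecan, the net's core proteoglycan, was listed at 0, 0.326 and 46.8 CPM and reached 10 CPM in 13 cells. Hapln4 was above Acan per kilobase in 54 of 54 cells.

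Of 15 lineage factors, 11 had a count in every cell, against 7821 of 20302 of all genes. Of the 12 kept for spread, 3 had an excess over 0.5, against 384 of 10919 (3.52%) of all genes kept. Mef2c was at 77.4, 566 and 1030 CPM, Satb1 at 1.85, 155 and 535 CPM (excess 0.72), and Zeb2, Dlx1 and Sox6 had medians of 68.1, 64.0 and 52.7 CPM. Nkx2-1, which is switched off in many cortical interneurons after birth, had counts in 4 of 54 cells. Of 21 early and stress genes, 5 were at 10 CPM in every cell, against 1854 of 20302 of all genes, and Fos, Dusp1 and Egr1 had the highest medians. Fos was at 266, 1153 and 3064 CPM, Dusp1 at 176, 872 and 2964 CPM and Egr1 at 71.4, 405 and 1018 CPM. Arc was uneven, at 0.0857, 18.0 and 308 CPM (excess 0.69), as was Egr4, at 0.178, 52.7 and 580 CPM (excess 0.95), and both were highest in cell 50.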

How the data were processed

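RNA was drawn from single PV cells by patch pipette and made into Nextera XT libraries, per the labels' protocols. STAR, GRCm38 and edgeR are named in the submitters' processing notes. The sources used here give no versions, counting tool, annotation, strand setting or molecular identifiers. The deposited table holds raw counts of 25648 genes in 58 cells. Every column matched a labelled cell (0 left over).

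Levels are CPM of each cell's own total. Lengths and positions came from GENCODE vM21 (24208 genes matched). Spread was the SD of log2(CPM + 1) among genes at 10 CPM or more in at least 10 cells, minus its running median over genes of like mean. It was tried on simulated cells in which all genes but the widened ones had the same underlying spread. Real genes differ in this, so the trial does not show how well the measure works here. Named genes were the extremes of level and spread (20 per level ranking, 15 most even and 15 highest minimum, 25 most variable, 10 concentrated in 2 cells), list members and component ends. Others were named after their values were seen, among them Sst, Npy, Kcnc1, Syt2 and Calb2, and further list members given as examples. The members and lists were chosen with earlier results of these data known. No test was made, since cells carry no animal label. Alternatives were thinning to 2054581 counts (1 draw, seed 20261), other detection limits, pseudocounts 0.1 and 10, no filter, TMM scaling (edgeR 4.0.16 in R 4.3.3), totals without mitochondrially encoded genes, the squared coefficient of variation and leaving out the cells of each age. Leaving out the 8 cells that stood apart was added after seeing the data. The 2 other deposited tables were not used here. Some results are not reported here.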

Additional observations from a re-analysis of the deposited data

Results flagged for a closer look

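The 4 cells labelled Fail were not part of the description above. Their totals were 0.836 M, 0.596 M, 0.545 M and 5.08 M counts, and the highest, 5.08 M, lay far from the other 3 for a group of 4. Chance alone sets such a mark in about 1 of 20 groups. That cell was within the range of the Pass cells in depth (2.05 to 52.3 M), and its Pvalb level, 1030 CPM, was above the highest Pass cell (788 CPM), while its Lhx6 level was 0.788 CPM.

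PV interneuron genes were also found in these unused cells. The Fail cell with the fewest Gad1 counts had 1259 of them. Gad1 was at 5227, 2111, 4493 and 5958 CPM in the 4 cells and Pvalb at 251, 33.5, 247 and 1030 CPM. Each Gad1 value was inside the range of the 54 Pass cells. Why they were labelled Fail is not stated in the labels.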

How the results depend on the processing

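No paired analysis was possible because the cells carry no pairing and no test was made. The median number of genes per cell, 13001.5, was 11378.5 after thinning to equal totals and 10742 when 5 counts were asked for. The number of genes found in every cell, 7821, was 4891 and 5148 under the same settings. Of the 20 most abundant genes, 10 stayed among the first 20 per kilobase of exon, and 17 to 20 stayed under the other settings. Of the 25 most variable genes, 7 stayed with the squared coefficient of variation, and 19 to 25 under the others. The number of genes with an excess over 0.5, 384, was 132 with a pseudocount of 10, and 386 to 572 under the others. The number at 10 CPM in every cell was 1844 to 2292, and 2292 without the 8 cells that stood apart. The share of the first component was 5.29% to 8.29%. The excess of single genes, together with the number over 0.5, gave 1557 values over these settings. Of these, 22 moved by more than the criterion used, among them the number over 0.5. Examples of genes were Lhx6 (0.24 without the cells of 40 days), Crym (0.64 without those of 35 days) and Ache (0.82 with a pseudocount of 10). A gene moved if its excess changed by at least the SD of the excess over all genes kept. By the share (percent in 2 cells), Vip and Penk had 33.8% and 38.1% of their summed level in their 2 highest cells without the 8 cells. The causes were not tested. Depth limits what a gene found in every cell means, and counts without molecular identifiers include amplified copies.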

Other observations

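Across 30 genes and the membrane values in the labels (49 cells with values, units not given there), the largest Spearman rho was that of Rbp4 with rm, 0.45. Camk1g with vrest gave 0.42. These are descriptions over cells that share animals in a way the labels do not give, and no p was computed.

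Gene model Gm10800 was at a median of 5.76 CPM and at 2035 CPM in cell 5, and its 2 highest cells, 5 and 52, held 82.7% of its summed level. Without the 8 cells that stood apart the share of its 2 highest cells was 24.4%, and without the cells of 35 days 32.9%. Snhg11, a noncoding RNA host of small nucleolar RNAs and the only member of the long noncoding RNA list among the genes of the count table, was at 155, 2699 and 7251 CPM in the lowest, median and highest cell (excess 0.60, and 0.27 without the cells of 36 days).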
